A study of Homo sapiens with 18 samples.

Results

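The cholesterol and fatty acid synthesis genes of the colorectal cancer line HT29 and its oxaliplatin (OXA)-resistant subline HTOXAR3 were followed as a group of 31 genes. They were chosen by name, as the enzymes and main regulators of both pathways, from the gene names printed on the array, and not by their values. All 31 were found, on 39 probes and 66 spots, among 36204 gene names, 50599 probes and 58717 spots that measure transcripts. They were ordered by role into 7 genes of the mevalonate pathway, 11 of sterol synthesis, 6 regulators and sterol carriers, and 7 of fatty acid synthesis.

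Total RNA was hybridised to 18 one-colour Agilent arrays, 3 biological replicates for each of 6 groups. HT29, a human colorectal adenocarcinoma line that is sensitive to OXA, was left untreated, treated with 10 µM OXA, or treated with 10 µM OXA and 10 µM Curcumin together. HTOXAR3, a subline of HT29 raised under continuous exposure to rising OXA doses, was left untreated, treated with 30 µM OXA, or treated with 30 µM OXA and 10 µM Curcumin together. Treatments lasted 24 h. OXA is a platinum drug that damages DNA, and Curcumin is a plant compound used here as an inhibitor of NF-κB. The OXA dose differed between the lines, so line and dose cannot be told apart in a comparison of their responses, HTOXAR3 is 1 subline, and Curcumin alone was not analysed here.

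Cells make cholesterol from acetyl-CoA through the mevalonate pathway, squalene and a series of sterol intermediates, and they make fatty acids from acetyl-CoA through malonyl-CoA. Both pathways are driven by the SREBP transcription factors, encoded by *SREBF1* and *SREBF2*. When sterols are plentiful, the INSIG proteins hold the complex of SREBP and its escort SCAP in the endoplasmic reticulum, and when sterols are scarce the complex moves to the Golgi, where SREBP is cut and released to the nucleus. *INSIG1* is itself a target of SREBP, whereas the SREBP genes differ in emphasis, with *SREBF2* tied mainly to cholesterol synthesis and *SREBF1* to fatty acid synthesis.

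The promoters of 5 members are shown because these genes carry the contrasts described below. *INSIG1* had the largest fall of the members after OXA, *HMGCS1* and *MSMO1* fell after OXA, *HMGCS1* was higher in both lines and *MSMO1* in HTOXAR3 when Curcumin was added, *INSIG2* rose, and *SREBF2* was called in no comparison. Each sequence is the 250 bases before a RefSeq transcript start, read 5′ to 3′ on the gene's strand in GRCh38.p14. Capitals mark the letters CCAAT, a site of NF-Y, CACGTG, the E-box, and TCACNCC, a core of the sterol response element, on either strand. The windows lie at chr7:155297628-155297877, plus strand for *INSIG1*, chr5:43313413-43313662, minus strand for *HMGCS1*, chr4:165327419-165327668, plus strand for *MSMO1*, chr2:118088221-118088470, plus strand for *INSIG2*, and chr22:41832855-41833104, plus strand for *SREBF2*.
INSIG1: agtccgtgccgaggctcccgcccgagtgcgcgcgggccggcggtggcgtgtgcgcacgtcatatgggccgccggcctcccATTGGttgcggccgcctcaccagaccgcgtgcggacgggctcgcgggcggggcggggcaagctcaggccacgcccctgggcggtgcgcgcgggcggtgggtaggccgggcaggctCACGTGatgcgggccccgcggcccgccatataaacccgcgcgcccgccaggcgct
HMGCS1: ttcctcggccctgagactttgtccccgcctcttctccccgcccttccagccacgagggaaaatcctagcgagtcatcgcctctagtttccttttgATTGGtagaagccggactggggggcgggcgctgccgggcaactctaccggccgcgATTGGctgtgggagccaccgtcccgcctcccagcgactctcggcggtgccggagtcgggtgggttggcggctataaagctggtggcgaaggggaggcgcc
MSMO1: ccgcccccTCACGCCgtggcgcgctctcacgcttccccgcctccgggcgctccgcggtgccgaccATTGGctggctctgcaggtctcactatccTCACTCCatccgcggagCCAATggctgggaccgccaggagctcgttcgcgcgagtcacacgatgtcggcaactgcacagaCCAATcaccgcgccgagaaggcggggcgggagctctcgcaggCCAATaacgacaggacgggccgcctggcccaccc
INSIG2: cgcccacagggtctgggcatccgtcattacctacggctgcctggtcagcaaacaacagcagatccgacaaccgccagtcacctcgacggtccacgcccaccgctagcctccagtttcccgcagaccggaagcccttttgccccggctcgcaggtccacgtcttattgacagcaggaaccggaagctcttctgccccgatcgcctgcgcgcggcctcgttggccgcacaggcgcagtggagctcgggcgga
SREBF2: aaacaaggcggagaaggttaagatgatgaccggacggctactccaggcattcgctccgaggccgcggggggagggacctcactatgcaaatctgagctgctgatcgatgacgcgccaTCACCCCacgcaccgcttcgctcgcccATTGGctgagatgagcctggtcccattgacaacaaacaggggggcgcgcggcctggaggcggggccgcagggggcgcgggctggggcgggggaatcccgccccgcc

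*INSIG1* held a CCAAT on the minus strand at -170 and a CACGTG at -55 from the start, and *HMGCS1* held a CCAAT on the minus strand at -155 and at -100. *MSMO1* held 4 CCAAT letters and 2 TCACNCC letters, *SREBF2* held 1 of each, and none of these letters occurred in the *INSIG2* window shown, although TCACNCC occurred in a window of another start of *INSIG2* and of *HMGCS1*. In all, 27 of the 31 members matched 37 RefSeq windows, and *ACAT2*, *FDFT1*, *SQLE* and *FASN* had none. CCAAT occurred in 62.2% of the member windows against 32.0% of all 35116 windows of this length. TCACNCC occurred in 21.6% against 13.1% and CACGTG in 10.8% against 6.34%. The longer TCACNCCAC, each copy of which is also counted as TCACNCC, occurred in 2.7% against 0.883%, and the GC-rich letters GGGCGG occurred in 89.2% against 42.6%. A match is a run of letters and not a measured binding site, and these shares were not tested. The members were well above background on every array, whereas the 35116 windows were not limited to detected genes.

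Levels are given as log2 of the intensity after background correction and quantile normalization, and a difference of 1 on this scale is a factor of 2. All 31 members were well above background on all 18 arrays, so no level below is a bound, and levels of unlike genes were not compared because each rests on its own probe. Of the 9 markers of colon epithelium, 7 were well above background on all 18 arrays, among them *EPCAM* and *KRT20*, whereas *CDX2* was so on 10 and *CEACAM5* on 16. Of the 5 fibroblast markers none was above background on all arrays and *COL1A2* and *COL3A1* were so on none. Of the leukocyte markers 3 of 4, and of the endothelial markers 2 of 3, were above background on all arrays, and their part in the results was not tested. The share of spots well above background ran from 52.36% to 63.58%. The arrays lay on 3 slides, 2 of which held all 6 groups. The third held 1 untreated and 1 OXA array of HT29.

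A gene was called when its Benjamini-Yekutieli adjusted p, from limma's moderated test over all gene names, was below 0.05 and its fold change above 1.2. All adjusted p-values below are of this kind. As RNA of whole cultures was measured, fewer cells expressing a gene and less RNA per cell cannot be told apart.

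**Figure D1:**
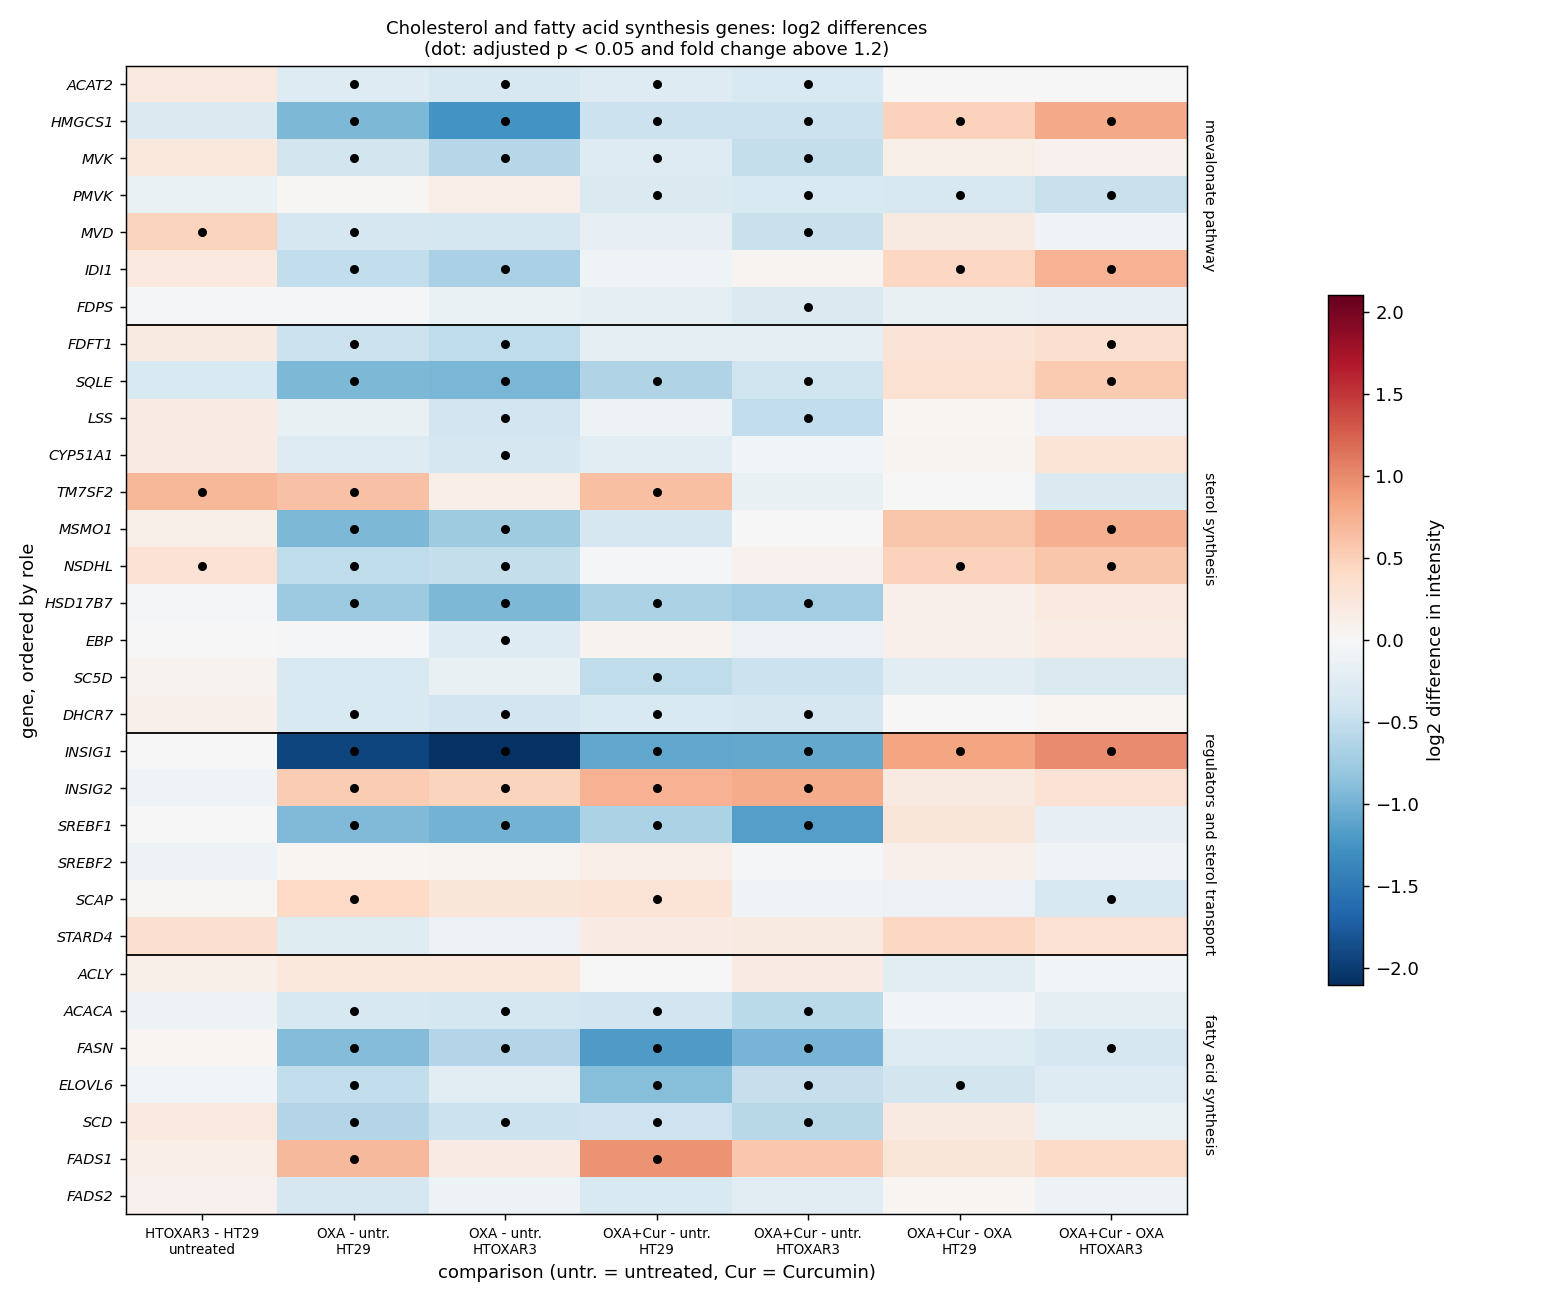
Log2 differences of the 31 genes (rows, by role) in 7 comparisons (columns), blue for lower and red for higher, with a dot where the gene was called. The OXA columns are mostly blue, with *INSIG1* at -1.92 in HT29 and -2.08 in HTOXAR3, whereas the columns for OXA plus Curcumin against OXA hold red for *INSIG1*, *HMGCS1*, *IDI1* and *NSDHL* and blue for *PMVK* in both lines.

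Of the 31 members 3 were called between the untreated lines, all higher in HTOXAR3, and 14 had an unadjusted p below 0.05, while 11.5% of all gene names and 21.6% of the names well above background on all 18 arrays were called. Of all names 6.26% were called higher and 5.28% lower in HTOXAR3. *TM7SF2*, a sterol reductase of cholesterol synthesis, read 9.13, 9.18 and 9.31 in untreated HT29 and 9.92, 9.95 and 9.86 in untreated HTOXAR3. The ranges did not overlap, and the difference was 0.70 (SE 0.083, limma adjusted p = 0.000262). *MVD*, the decarboxylase that ends the mevalonate steps, was higher by 0.47 (SE 0.082, limma adjusted p = 0.00862), at 10.18, 10.25 and 10.15 against 9.79, 9.63 and 9.76. *NSDHL*, a sterol dehydrogenase, was higher by 0.30 (SE 0.055, limma adjusted p = 0.0123). The other 28 differences lay between -0.33 for *SQLE* and 0.34 for *STARD4*, and the members' median was 0.09 against -0.03 for all names. The count fell to 1 without replicate 2 of untreated HT29 or replicate 2 of untreated HTOXAR3, and the call of *NSDHL* was also lost without replicate 1 of either line. Fitted on the untreated arrays alone, no member was called.

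After OXA, 15 of the 31 genes were called lower in both lines. In HT29, 21 of 31 were called, 17 lower and 4 higher, while 15.9% of all names and 30.9% of the names above background on all arrays were called, and 7.62% and 15.1% were called lower and 8.33% and 15.9% higher. In HTOXAR3, 19 were called, 18 lower and 1 higher, while 10.2% of all names and 20% of the detected names were called, and 4.94% and 9.8% were called lower and 5.31% and 10.2% higher. The median difference of the members was -0.34 in HT29 and -0.37 in HTOXAR3, against -0.01 and 0.01 for all names. *INSIG2* was the 1 member called higher in both lines, while 8 were called in 1 line and 7 in neither. On each slide that held both groups, every called member had the sign of its fitted difference. Fitted on only the groups compared, 5 members were called in HT29 and 4 in HTOXAR3.

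After OXA plus Curcumin, against untreated cells, 18 members were called in HT29, 14 lower and 4 higher, and 17 in HTOXAR3, 16 lower and 1 higher. The share of all names called was 18.6% in HT29, 9.02% being lower and 9.56% higher, and 17.5% in HTOXAR3, 8.64% being lower and 8.82% higher. Among the detected names it was 35.6% and 33.4%, with 18% and 16.8% lower and 17.6% and 16.5% higher. The members' median was -0.27 and -0.33, against -0.03 and -0.01 for all names. Both lines shared 13 members called lower, and *INSIG2* was again the 1 member called higher in both. With only the groups compared in the fit, 2 members were called in HT29 and 10 in HTOXAR3.

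Set against OXA alone, OXA plus Curcumin gave calls in both directions, the lower calls being near the share of detected names called lower. In HT29, 6 members were called, 4 higher and 2 lower, where 5.53% of all names and 10.9% of the detected names were called. Higher calls made up 3.14% of all names and 5.97% of the detected names, and lower calls 2.39% and 4.91%. In HTOXAR3, 10 were called, 7 higher and 3 lower, where 8.83% of all names and 17.3% of the detected names were called. There 4.43% of all names and 8.48% of the detected names were called higher, and 4.41% and 8.8% lower. *INSIG1*, *HMGCS1*, *IDI1* and *NSDHL* were higher and *PMVK* was lower in both lines. Without 1 array the HT29 count fell to 3 when replicate 2 of OXA or replicate 2 of OXA plus Curcumin was left out. In HTOXAR3 it fell to 5 without replicate 3 of OXA plus Curcumin, and to 6 without its replicate 1 or without replicate 2 of OXA. Fitted on only the groups compared, no member was called in either line. These comparisons share the OXA arrays with those of OXA against untreated cells, so a low OXA array enters both, and the values of each are given side by side below.

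**Figure D2:**
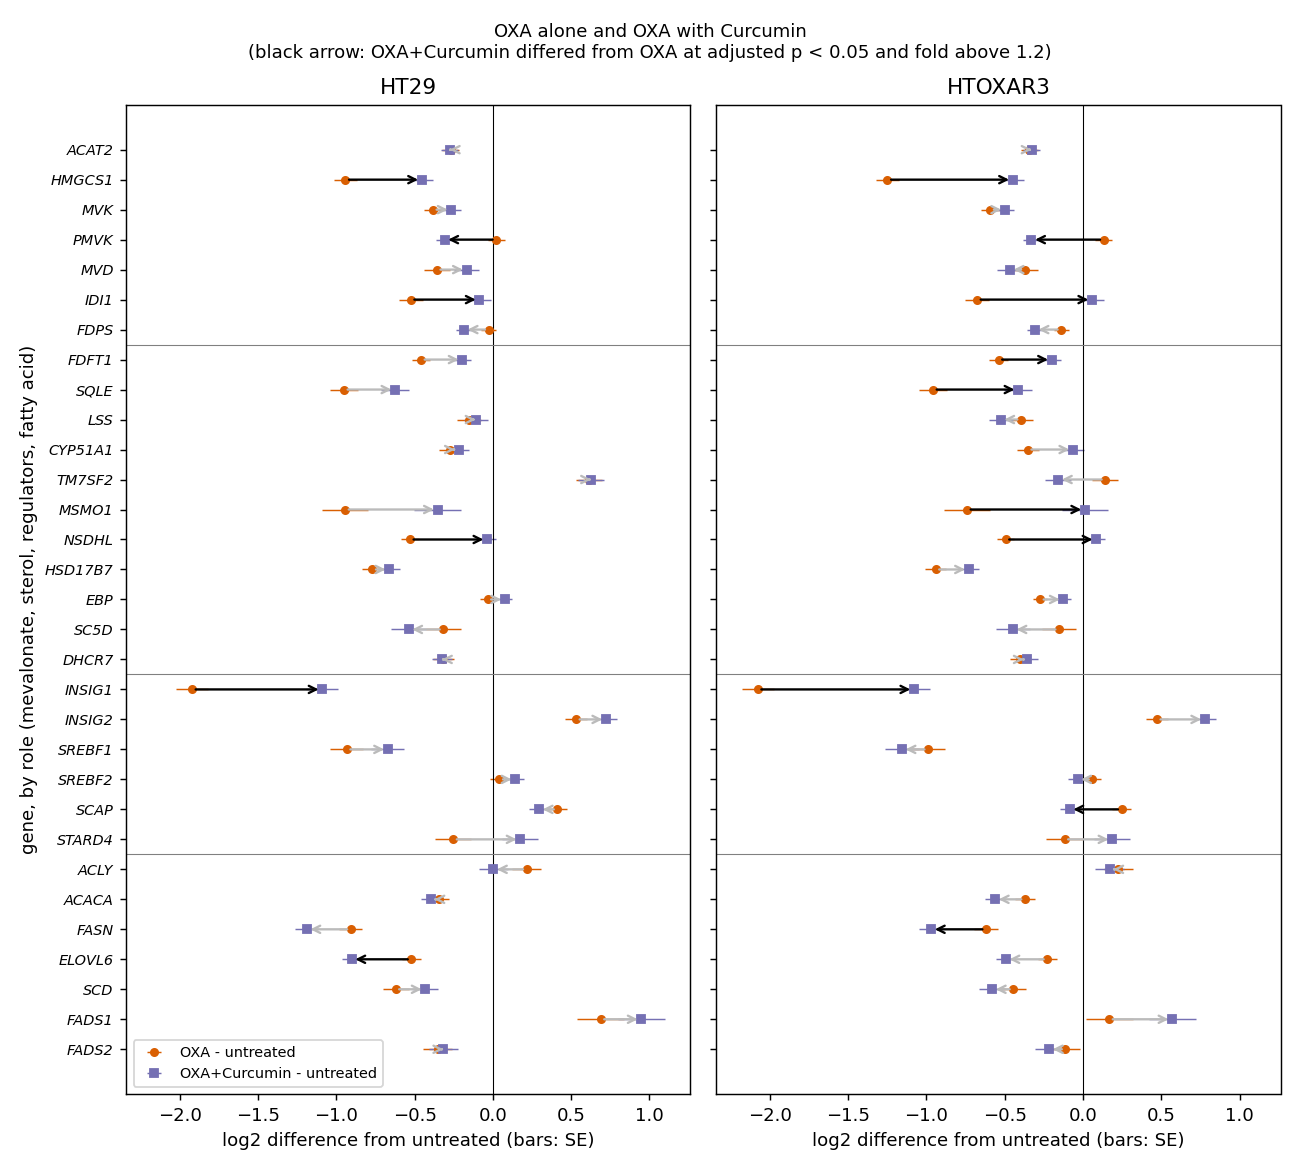
Log2 difference from untreated cells of the same line (x axis, bars SE) for each gene (y axis, by role), as circles for OXA and squares for OXA plus Curcumin, in HT29 (left) and HTOXAR3 (right). Arrows run from OXA to OXA plus Curcumin and are black where those groups differed, as for *INSIG1*, which lay at -1.92 and -1.09 in HT29 and at -2.08 and -1.08 in HTOXAR3.

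The mevalonate pathway turns acetyl-CoA into isoprenoid units, and after OXA 5 of its 7 genes were called lower in HT29, 4 of 7 in HTOXAR3 and none higher. *HMGCS1* encodes an early synthase of the pathway. It read 10.56, 10.57 and 10.68 in untreated HT29, 9.53, 9.65 and 9.81 after OXA, and 10.20, 10.11 and 10.13 after OXA plus Curcumin. The HTOXAR3 arrays read 10.25, 10.29 and 10.36 untreated, 9.07, 9.05 and 9.03 after OXA, and 9.77, 9.84 and 9.94 after OXA plus Curcumin. Within each line the 3 groups did not overlap, with OXA lowest and the combination in between. *HMGCS1* fell by 0.94 in HT29 (SE 0.072, limma adjusted p = 3.12e-06) and by 1.25 in HTOXAR3 (SE 0.072, limma adjusted p = 8.65e-07) after OXA. With Curcumin added it was 0.49 higher than after OXA in HT29 (limma adjusted p = 0.00527) and 0.80 higher in HTOXAR3 (limma adjusted p = 5.69e-05), and it stayed 0.45 below untreated cells in each line. The 2 slides that held both groups gave 0.51 and 0.33 for the Curcumin difference in HT29 and 0.70 and 0.85 in HTOXAR3.

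*IDI1*, the isomerase that balances the isoprenoid units, fell by 0.52 in HT29 and by 0.68 in HTOXAR3 after OXA. Its arrays read 11.20, 11.29 and 11.51 in untreated HT29, 10.77, 10.76 and 10.90 after OXA, and 11.29, 11.27 and 11.19 after OXA plus Curcumin. In HTOXAR3 they read 11.50, 11.51 and 11.61, then 10.84, 10.91 and 10.84, then 11.60, 11.55 and 11.64. The combination arrays overlapped the untreated range in both lines, and the OXA arrays lay below both. Curcumin added to OXA raised it by 0.44 (SE 0.077, limma adjusted p = 0.0172) in HT29 and by 0.73 (SE 0.077, limma adjusted p = 0.000177) in HTOXAR3, and against untreated cells the combination differed by -0.09 and 0.06, neither called. The HT29 call for Curcumin was lost without replicate 1 or 2 of OXA or replicate 1 or 2 of OXA plus Curcumin.

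*PMVK*, the kinase that follows mevalonate kinase, went the other way. It read 12.94, 12.95 and 12.90 in untreated HT29, 12.89, 12.93 and 13.04 after OXA, and 12.63, 12.60 and 12.64 after OXA plus Curcumin. In HTOXAR3 the values were 12.79, 12.83 and 12.75, then 12.94, 12.94 and 12.89, then 12.43, 12.54 and 12.41. The combination arrays were the lowest of each line, with no overlap. OXA alone differed from untreated cells by 0.02 and 0.13, neither called, whereas Curcumin added to OXA lowered *PMVK* by 0.33 (SE 0.055, limma adjusted p = 0.0131) in HT29 and by 0.46 (SE 0.055, limma adjusted p = 0.000589) in HTOXAR3. In HT29 the call was lost without replicate 1 or 2 of OXA plus Curcumin, or without replicate 2 or 3 of OXA, where the adjusted p ran from 0.0516 to 0.0763.

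*MVK*, mevalonate kinase, fell after OXA by 0.38 in HT29 and 0.59 in HTOXAR3, and after the combination by 0.27 and 0.50. The combination call in HT29 was lost with the slide block and in 5 of 6 omissions of 1 array, all but that of replicate 1 of untreated cells. *ACAT2*, the thiolase of the opening step, fell after OXA by 0.27 and 0.34, and after the combination by 0.27 and 0.33, so the Curcumin differences were -0.01 and 0.01. In HT29 the OXA call of *ACAT2* was lost in 5 of 6 omissions of 1 array, all but that of replicate 3 of OXA, and the combination call without replicate 1 or 3 of untreated cells or replicate 3 of the combination. *MVD* fell by 0.36 after OXA in HT29 (limma adjusted p = 0.0499) and by 0.47 after the combination in HTOXAR3 (limma adjusted p = 0.00607). The -0.37 after OXA in HTOXAR3 (limma adjusted p = 0.0547) and the -0.17 after the combination in HT29 were not called. The OXA call of *MVD* in HT29 was lost in 12 of 15 alternatives, among them the slide and replicate blocks, both 75th percentile scalings and each of the 6 omissions of 1 array. *FDPS*, which builds farnesyl diphosphate, was called only after the combination in HTOXAR3, where it fell by 0.31.

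Sterol synthesis runs from squalene to cholesterol, and OXA lowered 6 of its 11 genes in HT29 and 9 of 11 in HTOXAR3, with 1 called higher in HT29. After OXA plus Curcumin 4 of 11 were lower in each line and 1 was higher in HT29. *SQLE*, squalene epoxidase, a rate-limiting enzyme of the branch, read 14.34, 14.31 and 14.48 in untreated HT29, 13.51, 13.26 and 13.51 after OXA, and 13.85, 13.65 and 13.75 after the combination. In HTOXAR3 the values were 14.08, 13.99 and 14.07, then 13.14, 12.94 and 13.20, then 13.65, 13.54 and 13.72. As with *HMGCS1*, the 3 groups of a line did not overlap and the combination lay between. *SQLE* fell by 0.95 in HT29 (SE 0.091, limma adjusted p = 2.73e-05) and by 0.96 in HTOXAR3 (SE 0.091, limma adjusted p = 5.89e-05) after OXA. Curcumin added to OXA raised it by 0.54 in HTOXAR3 (limma adjusted p = 0.0085), and the 0.33 in HT29 was not called. The HTOXAR3 call for Curcumin was lost without replicate 3 of OXA plus Curcumin or replicate 2 of OXA. After the combination *SQLE* remained 0.62 below untreated cells in HT29 and 0.41 in HTOXAR3. The HTOXAR3 call was lost in 9 of 15 alternatives, among them the slide block and each of the 6 omissions of 1 array.

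*MSMO1*, the oxidase that removes methyl groups from sterols, had an SD of 0.33 in untreated HT29. It read 6.99, 7.17 and 7.63 there, 6.12, 6.28 and 6.57 after OXA, and 6.99, 6.89 and 6.85 after the combination. Its HTOXAR3 arrays gave 7.34, 7.25 and 7.59, then 6.67, 6.70 and 6.60, then 7.42, 7.34 and 7.46. The OXA arrays were the lowest in each line, without overlap. In HTOXAR3 the combination arrays lay within the untreated range. In HT29 only the highest combination array, at 6.991, reached the lowest untreated array, at 6.99. The combination differed from untreated cells by -0.35 in HT29 and 0.01 in HTOXAR3, neither called. *MSMO1* fell after OXA by 0.94 in HT29 (SE 0.148, limma adjusted p = 0.0024) and by 0.74 in HTOXAR3 (SE 0.148, limma adjusted p = 0.0269). Curcumin added to OXA raised it by 0.75 in HTOXAR3 (SE 0.148, limma adjusted p = 0.0272). The 0.59 in HT29 was not called. In HTOXAR3 the Curcumin call was lost whichever of the 6 arrays was left out, with an adjusted p from 0.0775 to 0.145, and the OXA call was lost in 5 of 6 such fits, all but that without replicate 2 of untreated cells.

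*NSDHL* read 14.36, 14.37 and 14.40 in untreated HT29, 13.95, 13.79 and 13.80 after OXA, and 14.36, 14.32 and 14.34 after the combination. In the resistant subline it read 14.70, 14.68 and 14.63, then 14.21, 14.20 and 14.12, then 14.74, 14.75 and 14.77. OXA arrays were the lowest of each line. *NSDHL* fell by 0.53 and 0.49 after OXA, and Curcumin added to OXA raised it by 0.49 in HT29 (SE 0.055, limma adjusted p = 0.00047) and by 0.58 in HTOXAR3 (SE 0.055, limma adjusted p = 7.75e-05). Against untreated cells the combination differed by -0.04 and 0.09, neither called. *FDFT1*, squalene synthase, fell by 0.46 and 0.54 after OXA, and Curcumin added to OXA raised it by 0.34 in HTOXAR3, a call lost in 3 of 6 omissions of 1 array (replicates 1 and 3 of OXA plus Curcumin and replicate 1 of OXA), while the 0.26 in HT29 was not called.

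A second set of sterol genes was called lower after OXA or the combination in 1 or both lines. None of them was called for Curcumin added to OXA. *HSD17B7*, a ketoreductase of the pathway, fell by 0.77 in HT29 and 0.94 in HTOXAR3 after OXA, and by 0.66 and 0.73 after the combination. Its 3 further probes, of which the dimmest was above background on 13 of 18 arrays, gave falls of 0.66 to 0.97 after OXA. *DHCR7*, which catalyses a final reduction to cholesterol, fell after OXA by 0.31 and 0.40 and after the combination by 0.33 and 0.35. In HT29 its OXA call was lost in 5 of 6 omissions of 1 array, all but that of replicate 2 of untreated cells, and its combination call without replicate 1 or 3 of untreated cells or replicate 1 or 2 of the combination. In HTOXAR3 its combination call was lost without replicate 3 of either group. In HTOXAR3 *LSS*, lanosterol synthase, *CYP51A1*, lanosterol demethylase, and *EBP*, a sterol isomerase, were called lower after OXA, by 0.40, 0.35 and 0.27. The HT29 differences of -0.15, -0.27 and -0.03 were not called, and neither was any difference between the lines. The call of *CYP51A1* was lost in 10 of 15 alternatives, among them the slide and replicate blocks and each of the 6 omissions of 1 array, and that of *EBP* without replicate 1 of untreated cells or replicate 3 of OXA. The call of *LSS* was lost in 8, among them the mean of all probes, where the difference was -0.07, and 5 omissions of 1 array. A second probe for *LSS*, above background on 17 of 18 arrays, gave 0.27 after OXA in HTOXAR3, the opposite sign. After the combination *LSS* was called lower in HTOXAR3 (-0.525), a call lost with the mean of all probes, where the difference was -0.087. The second *LSS* probe gave 0.35 in that comparison. *SC5D*, a sterol desaturase, was called only after the combination in HT29, where it fell by 0.54, a call lost in 4 of 6 omissions of 1 array (replicates 2 and 3 of untreated cells and replicates 1 and 2 of OXA plus Curcumin). Over the 15 alternatives that difference ran from -0.643 to -0.305.

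*TM7SF2* was the sterol gene that rose. It read 9.13, 9.18 and 9.31 in untreated HT29, 9.79, 9.78 and 9.90 after OXA, and 9.66, 9.86 and 9.99 after OXA plus Curcumin. In HTOXAR3 it read 9.92, 9.95 and 9.86, then 9.99, 10.09 and 10.07, then 9.73, 9.84 and 9.68. Both treated groups of HT29 lay above the untreated one without overlap, while in HTOXAR3 the combination arrays lay below both other groups. *TM7SF2* rose in HT29 by 0.61 after OXA (SE 0.083, limma adjusted p = 0.000626) and by 0.63 after the combination (SE 0.083, limma adjusted p = 0.000433). In HTOXAR3 the differences were 0.14 and -0.16, neither called.

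Among the regulators, *INSIG1*, which holds SREBP in the endoplasmic reticulum, had the largest fall of all members after OXA. Its probe lies at chr7:155101843-155101902 (GRCh37, plus strand) in the array's annotation, and whether it lies in a coding or untranslated part was not determined here. *INSIG1* read 10.63, 10.50 and 10.87 in untreated HT29, 8.73, 8.71 and 8.80 after OXA, and 9.51, 9.45 and 9.77 after OXA plus Curcumin. The HTOXAR3 arrays read 10.71, 10.68 and 10.63, then 8.62, 8.55 and 8.62, then 9.74, 9.49 and 9.56. The groups of a line stood apart without overlap, with OXA lowest and the combination in between. OXA lowered *INSIG1* 3.78-fold in HT29 (-1.92, SE 0.101, limma adjusted p = 7.63e-08) and 4.21-fold in HTOXAR3 (-2.08, SE 0.101, limma adjusted p = 2.27e-07).

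With Curcumin added, *INSIG1* was 1.78-fold higher than after OXA alone in HT29 (0.83, SE 0.101, limma adjusted p = 0.001) and 2.00-fold higher in HTOXAR3 (1.00, SE 0.101, limma adjusted p = 0.000134). It remained 2.13-fold and 2.11-fold below untreated cells. Within slides the OXA difference ran from -2.06 to -1.79 in HT29 and from -2.07 to -2.04 in HTOXAR3, and the Curcumin difference from 0.77 to 0.97 and from 0.94 to 1.12.

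*INSIG2*, the second INSIG protein, moved opposite to *INSIG1* after OXA. *INSIG2* read 10.27, 10.31 and 10.22 in untreated HT29, 10.86, 10.77 and 10.77 after OXA, and 11.14, 10.96 and 10.87 after OXA plus Curcumin. In HTOXAR3 the values were 10.21, 10.22 and 10.17, then 10.71, 10.69 and 10.61, then 10.87, 11.01 and 11.05. Every treated array lay above every untreated array of its line. *INSIG2* rose by 0.53 in HT29 (SE 0.072, limma adjusted p = 0.000645) and by 0.47 in HTOXAR3 (SE 0.072, limma adjusted p = 0.00324) after OXA, and by 0.72 and 0.78 after the combination. A second probe of *INSIG2* also gave rises after OXA, of 0.35 and 0.32, but only 0.04 and 0.13 after the combination, so the Curcumin difference was 0.19 and 0.31 on the brighter probe, neither called, and -0.31 and -0.19 on the second.

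*SREBF1*, the SREBP gene tied to fatty acid synthesis, fell in both lines. It read 14.19, 14.17 and 14.39 in untreated HT29, 13.18, 13.37 and 13.40 after OXA, and 13.39, 13.52 and 13.82 after the combination. Its HTOXAR3 arrays gave 14.27, 14.25 and 14.27, then 13.17, 13.30 and 13.35, then 13.18, 13.15 and 13.00. The treated arrays lay below the untreated ones in both lines. The 2 treated groups overlapped only at their edges, from 13.395 to 13.398 in HT29 and from 13.171 to 13.175 in HTOXAR3. *SREBF1* fell by 0.93 in HT29 (SE 0.106, limma adjusted p = 0.000126) and by 0.99 in HTOXAR3 (SE 0.106, limma adjusted p = 0.000163) after OXA, and by 0.67 and 1.15 after the combination. A dimmer second probe gave falls of 0.40 and 0.27 after OXA, and of 0.28 and 0.24 after the combination.

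*SREBF2*, the other SREBP gene, was called in none of the 10 comparisons by limma, and its untreated and OXA arrays overlapped in both lines, at 10.88 to 10.98 against 10.97 to 11.00 in HT29 and 10.81 to 10.87 against 10.81 to 10.94 in HTOXAR3. *SCAP*, the escort of SREBP, read 12.06, 12.06 and 12.10 in untreated HT29, 12.47, 12.52 and 12.47 after OXA, and 12.28, 12.38 and 12.45 after the combination. In the resistant subline it read 11.99, 12.18 and 12.11, then 12.29, 12.38 and 12.35, then 12.01, 12.04 and 11.97. In HT29 both treated groups were above the untreated one, and in HTOXAR3 the combination overlapped the untreated range. It rose by 0.41 after OXA in HT29 (limma adjusted p = 0.00142), and the 0.25 in HTOXAR3 was not called. After the combination it rose by 0.30 in HT29, a call lost in 7 of 15 alternatives, among them both 75th percentile scalings, and the -0.08 in HTOXAR3 was not called. Curcumin added to OXA lowered it by 0.33 in HTOXAR3 (SE 0.061, limma adjusted p = 0.017), a call lost without replicate 1 or 3 of OXA plus Curcumin or replicate 2 or 3 of OXA. *STARD4*, a cholesterol carrier, was called in no comparison, with differences between groups from -0.25 to 0.43.

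**Figure D3:**
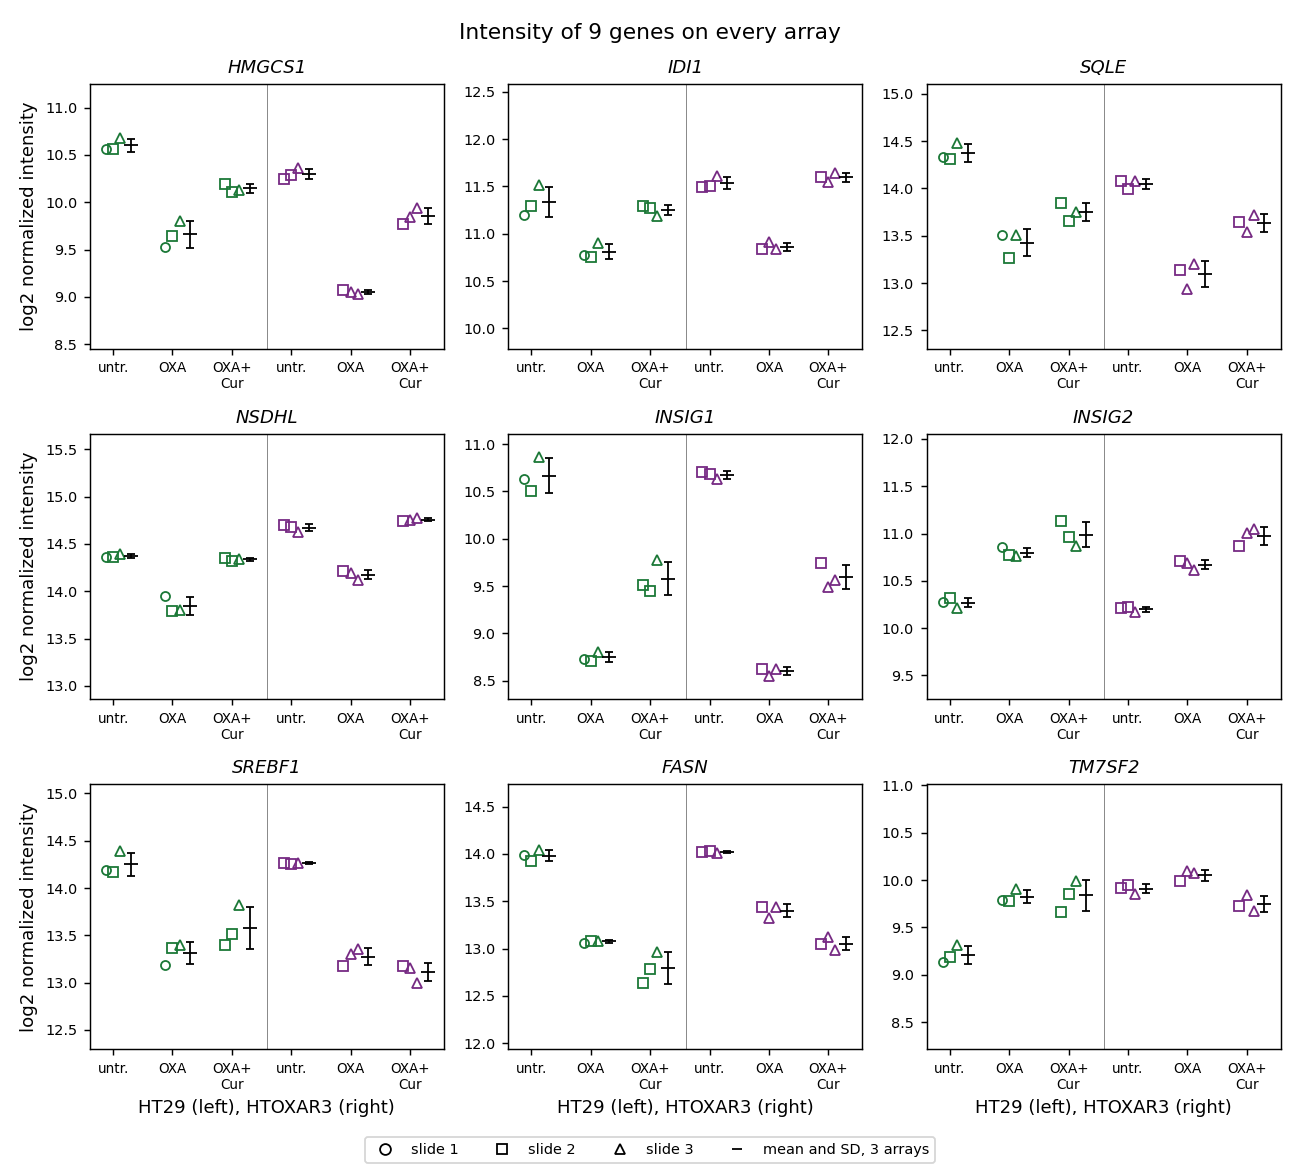
Log2 normalized intensity (y axis) of 9 genes on every array, by treatment (x axis) in HT29 (left) and HTOXAR3 (right), with the slide as symbol and bars for mean and SD of 3 arrays. *HMGCS1*, *SQLE* and *INSIG1* lay lowest after OXA and in between after OXA plus Curcumin, whereas *FASN* lay lowest after OXA plus Curcumin in both lines, at 12.64 to 12.97 in HT29 and 12.98 to 13.12 in HTOXAR3.

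Of the 7 fatty acid synthesis genes, OXA called 4 lower and 1 higher in HT29 and 3 lower in HTOXAR3. After OXA plus Curcumin 4 of 7 were lower in each line and 1 was higher in HT29. When Curcumin was added to OXA, 1 of the 7 was called in each line, *ELOVL6* in HT29 and *FASN* in HTOXAR3, both lower, a share near the 10.9% and 17.3% of detected names called. *FASN*, the synthase that builds palmitate, read 13.99, 13.92 and 14.04 in untreated HT29, 13.06, 13.08 and 13.09 after OXA, and 12.64, 12.78 and 12.97 after the combination. In HTOXAR3 it read 14.02, 14.03 and 14.01, then 13.44, 13.32 and 13.44, then 13.05, 13.12 and 12.98. The order was untreated, OXA, combination in both lines, with no overlap.

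*FASN* fell by 0.91 in HT29 (SE 0.075, limma adjusted p = 6.14e-06) and by 0.62 in HTOXAR3 (SE 0.075, limma adjusted p = 0.000508) after OXA. After the combination it fell 2.28-fold in HT29 (-1.19, SE 0.075, limma adjusted p = 3.83e-07) and 1.96-fold in HTOXAR3 (-0.97, SE 0.075, limma adjusted p = 3.4e-06). Curcumin added to OXA lowered it by 0.35 in HTOXAR3 (limma adjusted p = 0.0493), a call that was lost with the replicate number as a block (adjusted p = 0.0759) and in each of the 6 omissions of 1 array, and the -0.28 in HT29 was not called.

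*ELOVL6*, which lengthens palmitate, read 10.31, 10.36 and 10.25 in untreated HT29, 9.70, 9.82 and 9.84 after OXA, and 9.43, 9.36 and 9.43 after the combination. The HTOXAR3 arrays read 10.27, 10.24 and 10.21, then 9.98, 9.96 and 10.10, then 9.72, 9.81 and 9.72. The order matched that of *FASN*, without overlap. *ELOVL6* fell in HT29 by 0.52 after OXA and by 0.90 after the combination (SE 0.060, limma adjusted p = 6.05e-07), and Curcumin added to OXA lowered it by 0.38 (limma adjusted p = 0.00785), a call lost with the mean of all probes and without replicate 2 of either group. In HTOXAR3 the -0.23 after OXA was not called and the combination lowered it by 0.49. A second, dimmer probe gave larger falls, of 1.28 and 0.71 after OXA and of 1.62 and 1.39 after the combination.

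*ACACA*, which makes malonyl-CoA, fell on its brighter probe (chr17:35441933-35441992, GRCh37, minus strand) by 0.34 and 0.37 after OXA and by 0.40 and 0.56 after the combination. A second probe at chr17:35687237-35687296 gave -0.20 and -0.19 after OXA but 0.05 and 0.12 after the combination, so with the mean of all probes *ACACA* was not called after the combination in either line. *SCD*, the desaturase that makes monounsaturated fatty acids, fell by 0.62 and 0.44 after OXA and by 0.43 and 0.58 after the combination. The OXA call of *SCD* in HTOXAR3 was lost without replicate 2 or 3 of untreated cells or replicate 1 or 3 of OXA, and the combination call in HT29 without replicate 1 of the combination.

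*FADS1*, a desaturase of polyunsaturated fatty acids, rose in HT29. It read 5.67, 5.37 and 5.67 untreated, 6.04, 6.59 and 6.14 after OXA, and 6.34, 6.51 and 6.71 after the combination. In HTOXAR3 the values were 5.76, 5.81 and 5.56, then 5.86, 5.94 and 5.85, then 6.46, 6.34 and 6.05. Treated arrays lay above untreated ones in both lines. *FADS1* rose in HT29 by 0.69 after OXA (SE 0.150, limma adjusted p = 0.0346) and by 0.95 after the combination (SE 0.150, limma adjusted p = 0.00227), and the 0.17 and 0.57 in HTOXAR3 were not called. Over the 15 alternatives the HT29 differences ran from 0.378 to 1.138 after OXA and from 0.538 to 1.435 after the combination. The OXA difference in HT29 was 1.22 on 1 slide and 0.37 and 0.47 on the others, and with the replicate number as a block it was not called (adjusted p = 0.0644), nor without any 1 array of untreated HT29 or without replicate 2 or 3 of OXA. *ACLY*, which makes cytosolic acetyl-CoA, and *FADS2* were called in no comparison, with differences between groups of -0.21 to 0.23 and -0.35 to 0.09.

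The responses of the lines were compared directly, as the difference in HTOXAR3 minus that in HT29, at unlike OXA doses. For OXA, limma called none of the 31 members, with 8 at an unadjusted p below 0.05 and 1 called with Benjamini-Hochberg adjustment, while 1.01% of all names were called. For OXA plus Curcumin it called 1 member, *TM7SF2*, while 0.856% of all names were called. For Curcumin added to OXA it called none, with 9 at an unadjusted p below 0.05 and none with Benjamini-Hochberg adjustment, while 0.135% of all names were called, 0.0276% higher and 0.108% lower.

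The response of *TM7SF2* to OXA plus Curcumin was lower in HTOXAR3 by 0.78 (95% confidence interval -1.04 to -0.53, SE 0.117, limma adjusted p = 0.023). The untreated arrays that gave its difference of 0.70 between the untreated lines also enter this value. For its response to OXA the difference was -0.47 (interval -0.72 to -0.22) and was not called. The call for the combination was lost in 8 of the 12 fits that left out 1 array, with an adjusted p of up to 0.0932, while the difference stayed between -0.87 and -0.71 over all 12. These were the fits without replicate 1 or 2 of untreated HT29, replicate 2 of HT29 with OXA plus Curcumin, any array of untreated HTOXAR3, and replicate 1 or 3 of HTOXAR3 with OXA plus Curcumin. For *INSIG1* the lines differed by -0.16 after OXA (interval -0.46 to 0.15) and by 0.01 after the combination (interval -0.29 to 0.32). *HMGCS1* fell further in HTOXAR3 after OXA by 0.30 (interval -0.53 to -0.09), and its Curcumin difference was 0.31 larger there (interval 0.09 to 0.53), neither called. The intervals of *SREBF1* for the combination, -0.81 to -0.16, and of *ELOVL6*, 0.23 to 0.59, did not include 0, and neither was called.

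**Figure D4:**
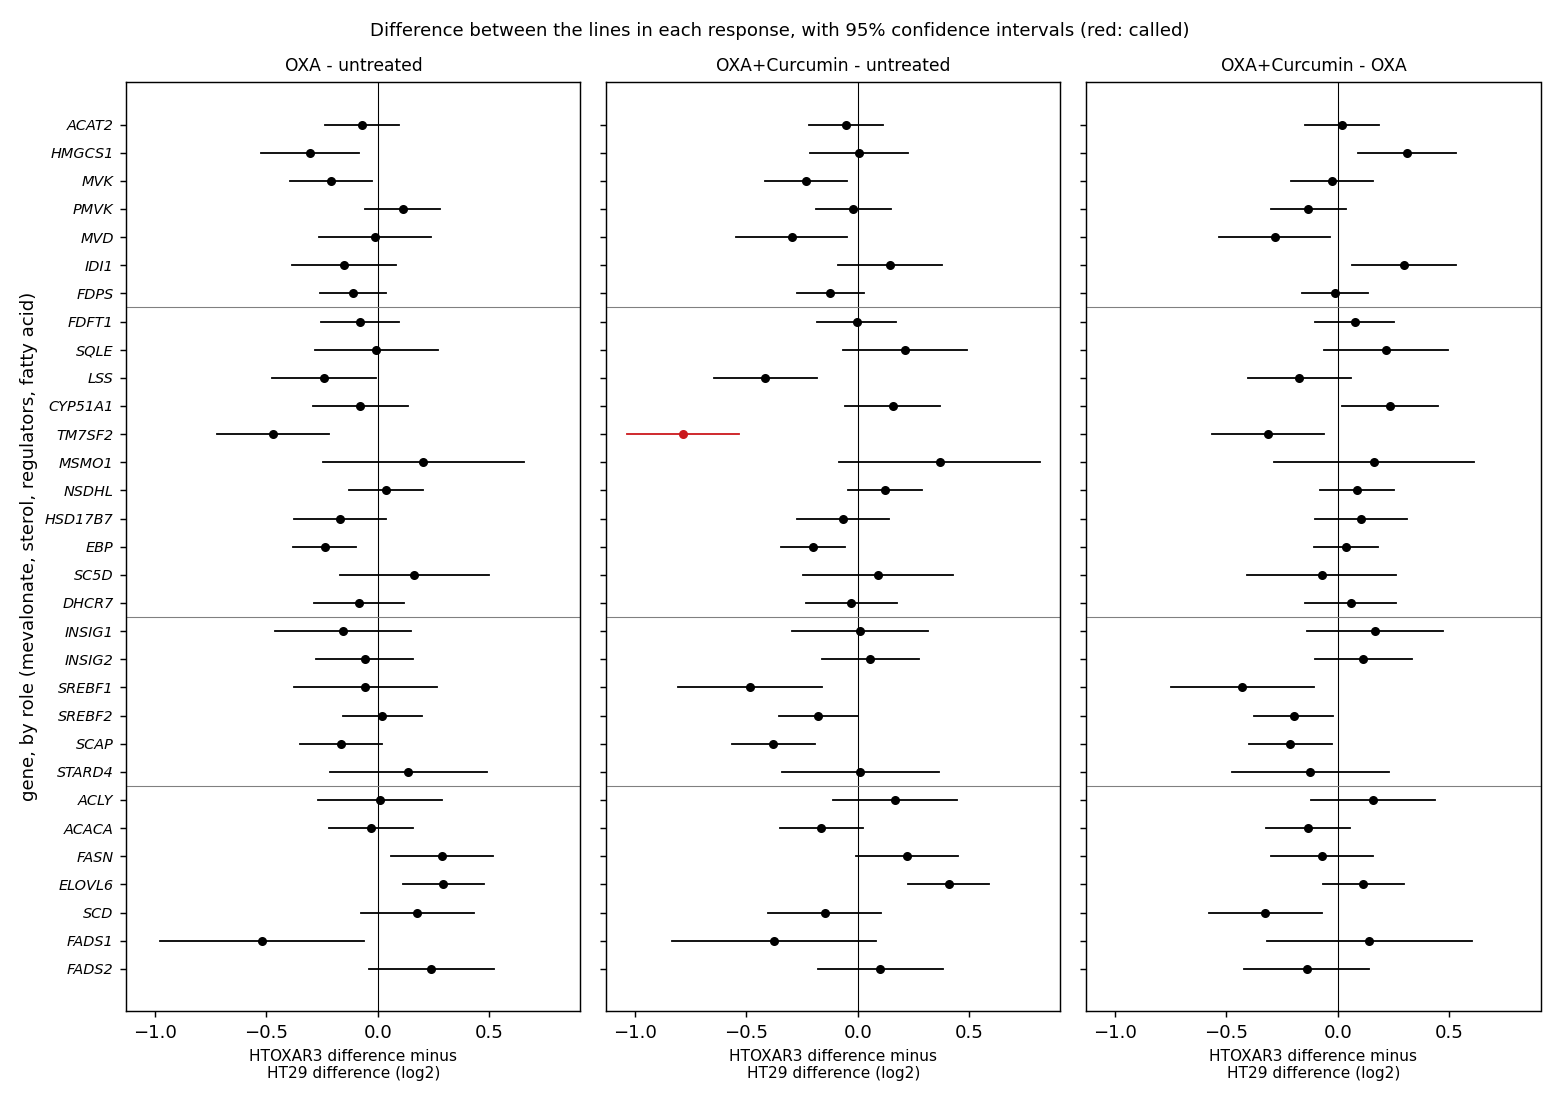
Difference between the lines in each response (x axis, log2, HTOXAR3 minus HT29) for each gene (y axis, by role), with 95% confidence intervals, for OXA (left), OXA plus Curcumin (middle) and Curcumin added to OXA (right). 1 value is called, that of *TM7SF2* for OXA plus Curcumin at -0.78, and most intervals include 0.

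Genes of sterol sensing and cholesterol handling were followed from lists of 10 and 14 genes. Of the 10 genes of SREBP processing and sterol sensing, OXA called 1 higher and 2 lower in each line. Over these and the other further lists, 63 genes in all, OXA called 19 in HT29 and 13 in HTOXAR3. It called 15.9% and 10.2% of all names and 30.9% and 20% of detected names. The 63 genes were not limited to detected names. OXA plus Curcumin called 24 and 22 of the 63, against 18.6% and 17.5% of all names and 35.6% and 33.4% of detected names. Curcumin added to OXA called 9 and 11, against 5.53% and 8.83% of all names and 10.9% and 17.3% of detected names. *MYLIP*, a ubiquitin ligase induced by liver X receptors, fell by 0.90 and 0.83 after OXA, and Curcumin added to OXA raised it by 0.78 and 0.89. *NR1H3*, which encodes a liver X receptor, fell by 0.38 and 0.43 after OXA. After OXA plus Curcumin 2 were higher and 2 lower in HT29 and 2 higher and 1 lower in HTOXAR3, and with Curcumin added to OXA 1 was higher and 1 lower in HT29 and 3 higher in HTOXAR3. Of the 14 genes of cholesterol transport, storage and efflux, OXA called 4 higher and none lower in each line by limma. *APOE*, a carrier of lipids, rose by 0.68 and 0.93, and *NPC1*, which exports cholesterol from lysosomes, rose by 0.68 and 0.39. After OXA plus Curcumin 4 of 14 were higher and 1 lower in each line, with *APOE* higher by 0.98 and 1.10 and *NPC1* by 0.85 and 0.88. *SOAT1*, which makes cholesterol esters for storage, was called higher in both comparisons but none of its HT29 arrays in them stood clearly above background, so no fold is given there.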

How the data were processed

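Total RNA (100 ng) of 18 cultures was labelled with Cy3 and hybridised to one-colour Agilent arrays. The deposited spot intensities were extracted by the authors with Feature Extraction 10.7.3.1 and were not normalized between arrays. The authors' own log2 table was not used here, because its line numbers match no probe name.

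From the mean signal and local background median, intensities were corrected with normexp (offset 0), freed of control spots, put on the log2 scale and quantile normalized with limma 3.58.1 in R 4.3.3. Spots of a probe were averaged, and each of 36204 names took its probe with the highest mean, 8947 names having several. A linear model with 6 group terms over all 18 arrays was fitted with lmFit and eBayes. Genes with a Benjamini-Yekutieli adjusted p below 0.05 and a fold above 1.2 were called, and the scripts were tested on simulated data. Replicates are biological per the labels, and 3 arrays per group limit the precision.

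Members, lists and tests were chosen with earlier results of these data known. Every array is given for members among the 3 largest called rises or falls of a comparison that were well above background on all its arrays, other members are given by values or counts, and further lists name up to 3 called genes per comparison, largest first. *IDI1* was given by array after its values were seen. Samples of equal replicate number deviated together for OXA in HT29 (correlations 0.117 to 0.242) and for Curcumin added to OXA in HTOXAR3 (0.109 to 0.195), where they shared a slide, so the fit with the replicate number as a block is given there where it changed a call. Alternatives were other background corrections, scalings, probe rules and adjustments, dim probes left out, slide or replicate as a block, only the groups compared, and each array left out. Some genes of both pathways are not reported here.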

Additional observations from a re-analysis of the deposited data

Results flagged for a closer look

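The response of *TM7SF2* to OXA plus Curcumin differed between the lines by -0.78 on the log2 scale (HTOXAR3 minus HT29, limma interaction test, adjusted p = 0.023), with 0.63 in HT29 and -0.16 in HTOXAR3. It was set apart because the effects of 1 treatment in 2 lines differed. The same untreated arrays gave the difference of 0.70 between the untreated lines, so the 2 results share arrays. Means were 9.21 in HT29 and 9.91 in HTOXAR3 untreated, and 9.84 and 9.75 after OXA plus Curcumin. Within slides the response was 0.58 and 0.68 in HT29 and -0.20 and -0.10 in HTOXAR3. The OXA dose differed between the lines, so line and dose cannot be told apart. Groups of 3 arrays were too small for a search for outlying arrays.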

How the results depend on the processing

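Over 95 calls of a member in a comparison, none changed sign under any alternative, but 76 were lost under at least 1 and 19 under none. With an offset of 50 the line difference for OXA plus Curcumin had 2 members called. With Benjamini-Hochberg adjustment 5 were called in untreated cells, 10 for Curcumin added to OXA in HT29, and 1 and 3 for the line differences in OXA and OXA plus Curcumin. With only the groups compared in the fit, which leaves fewer arrays for the spread, the counts were 0 in untreated cells, 5 and 4 after OXA in HT29 and HTOXAR3, 2 and 10 after OXA plus Curcumin, 0 and 0 for Curcumin added to OXA, and 0 for the line difference in OXA plus Curcumin. Leaving out 1 array gave 1 to 4 in untreated cells, 17 to 18 and 15 to 16 after OXA, 14 to 15 and 15 to 16 after OXA plus Curcumin, 3 to 7 and 5 to 8 for Curcumin added to OXA, 0 for the line difference in OXA, 0 to 1 in OXA plus Curcumin and 0 in Curcumin added to OXA. With the replicate number as a block the counts were 4, 19, 18, 18, 17, 7 and 9 in the order of these comparisons, and 0, 1 and 0 for the line differences. Scaling to the 75th percentile of the processed signal moved the median of all names to -0.10 and -0.19 after OXA and to -0.15 and -0.18 after OXA plus Curcumin, and the members' medians were then -0.37, -0.37, -0.30 and -0.33.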

Other observations

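Of 27 other genes of fatty acid and lipid metabolism, OXA called 4 higher and 5 lower in HT29 and 1 higher and 3 lower in HTOXAR3. It called 15.9% and 10.2% of all names and 30.9% and 20% of detected names. *ACSS2*, which makes acetyl-CoA from acetate, rose by 1.16 in HT29 after OXA, and by 1.58 in HT29 and 0.87 in HTOXAR3 after OXA plus Curcumin. *FADS3*, a relative of *FADS1*, rose by 0.95 and 0.77 after OXA. With Curcumin added to OXA, 3 were higher and 2 lower in HT29 and 4 higher and 2 lower in HTOXAR3. There 5.53% and 8.83% of all names and 10.9% and 17.3% of detected names were called. Among the higher genes were *ME1*, malic enzyme, by 0.86 and 1.04, and *LPIN1*, a phosphatidate phosphatase, by 0.58 and 0.88. In untreated cells 5 were higher and 2 lower in HTOXAR3, where 11.5% of all names and 21.6% of detected names were called. *MLXIPL*, a carbohydrate-responsive transcription factor, was higher by 1.35.

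Of 12 other genes of isoprenoid and sterol metabolism, OXA called 2 higher and 1 lower in HT29 and 1 higher and 1 lower in HTOXAR3. The shares beside these counts are the same 15.9% and 10.2% of all names and 30.9% and 20% of detected names. *LBR*, a lamin B receptor with sterol reductase activity, fell by 0.76 and 0.56. *CYP27A1*, a sterol hydroxylase, rose by 1.73 and 0.93 after OXA plus Curcumin. With Curcumin added to OXA, *DHDDS*, which builds dolichol, was higher by 0.65 and 0.74. None of the 63 genes of the further lists was called by limma for a difference between the lines.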
